A study of Mus musculus with 12 samples.

Results

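Keratins are the intermediate filament proteins of epithelial cells, and 10 keratin genes were followed here across 6 mouse tumour-derived cell lines: the simple keratins Krt7, Krt8, Krt18 and Krt19, the basal and hyperproliferation keratins Krt5, Krt14, Krt16 and Krt17, and in addition Krt23 and Krt10. Every probe annotated to these genes was taken, 12 probes of the 46632 on the array, for 10 of its 17711 gene symbols. The study compared 3 lines with constitutively active STAT3 with 3 lines with wild-type STAT3, and each line was hybridised to 2 Illumina bead arrays, 12 arrays in all. STAT3 passes signals of cytokine receptors to the nucleus, where it acts as a transcription factor, and Stat3 is the gene altered between the groups. The labels name neither the construct or allele behind the constitutive activity, nor the tissue of the tumours, nor whether a line is a single clone, and no line was treated. All were cultured in RPMI with foetal calf serum. The labels do not state whether replicate arrays stem from separate cultures, and tests among lines therefore weigh differences against a spread that may be technical only. The lines are called active line 1 to 3 and wild-type line 1 to 3 below; their numbers do not pair them.

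Keratin filaments are built from pairs of an acidic type I and a basic type II protein, so that epithelia make both kinds together. Krt8 (type II) and Krt18 (type I) form the first pair of simple epithelia, to which luminal and ductal cells add Krt7 (type II) and Krt19 (type I), an unusually short keratin. Krt5 (type II) and Krt14 (type I) are the pair of the basal layer of stratified epithelia and of myoepithelial cells. The type I keratins Krt16 and Krt17 appear in wounded or rapidly dividing epidermis, where Krt6 proteins are their partners. Krt10, type I, belongs to the differentiating layers of the epidermis, and Krt23 is a type I keratin whose role is less well known.

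Signals are given on a log2 scale after background correction and quantile normalization, and a probe counts as detected on an array where its detection p was under 0.01. Between 11002 and 12798 probes were detected per array, and within a line the arrays correlated at 0.992 to 0.997 over all probes, against 0.928 to 0.982 for the means of different lines. Stat3 was detected in every line, at 12.74, 12.27 and 11.50 in active lines 1, 2 and 3 and at 12.42, 12.80 and 12.76 in wild-type lines 1, 2 and 3, which makes a log2 fold change of -0.49 (adjusted p = 0.892 by limma). Its transcript level does not test the activity of the protein. Of the epithelial genes Cdh1, Cldn3, Cldn4 and Cldn7, which code for E-cadherin and claudins, probes were detected on all 12 arrays, whereas the single probes of Epcam and Cd24a were detected on 0. Of the other cell types looked for, 6 of 9 leukocyte, 7 of 8 endothelial, 6 of 6 adipocyte and 8 of 13 mesenchymal genes were detected on no array, against 52.4% of all genes. The mean log2 signal per array over these lists lay at 5.47 to 5.63 in active and 5.53 to 6.09 in wild-type lines for leukocyte genes, at 5.32 to 5.48 in active and 5.22 to 5.33 in wild-type lines for endothelial genes, at 4.84 to 4.92 in active and 4.79 to 4.86 in wild-type lines for adipocyte genes, and at 5.59 to 6.02 in active and 5.65 to 5.94 in wild-type lines for mesenchymal genes. In such bulk RNA, fewer cells of a kind and less RNA per cell cannot be told apart.

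Across the 6 lines the keratins fell into 3 kinds. Krt7, Krt8 and Krt18 were bright and nearly level in every line, with line means that spanned 0.35, 0.41 and 0.38 log2 units. Krt19, Krt14, Krt16, Krt17 and Krt23 differed widely between lines of both genotypes, by 3.22 log2 units for Krt23 and 5.18 for Krt14, which were detected on all 12 arrays. Krt19, Krt16 and Krt17 dropped below detection in some lines, so their highest lines stood at least 12.4-fold, 23.6-fold and 30.8-fold above wild-type line 1. Krt5 was detected on 0 of 12 arrays, and Krt10 was dim and nearly level. Of the 12 probes, 9 passed the filter, which asked for detection on both arrays of at least 3 lines. The other 3, a second probe each of Krt8 and Krt10 and the only probe of Krt5, were detected nowhere. A span over 1 log2 unit was found for 5 of the 9 keratin probes, where 21.4% of the 11650 probes that passed had one, and the median span was 3.22 for these keratins and 0.60 for all probes. All 5 wide-ranging keratins of the 10 are of type I, but so are the level Krt18 and Krt10, and Krt79, a type II keratin outside the 10, spanned 4.71.

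**Figure D1:**
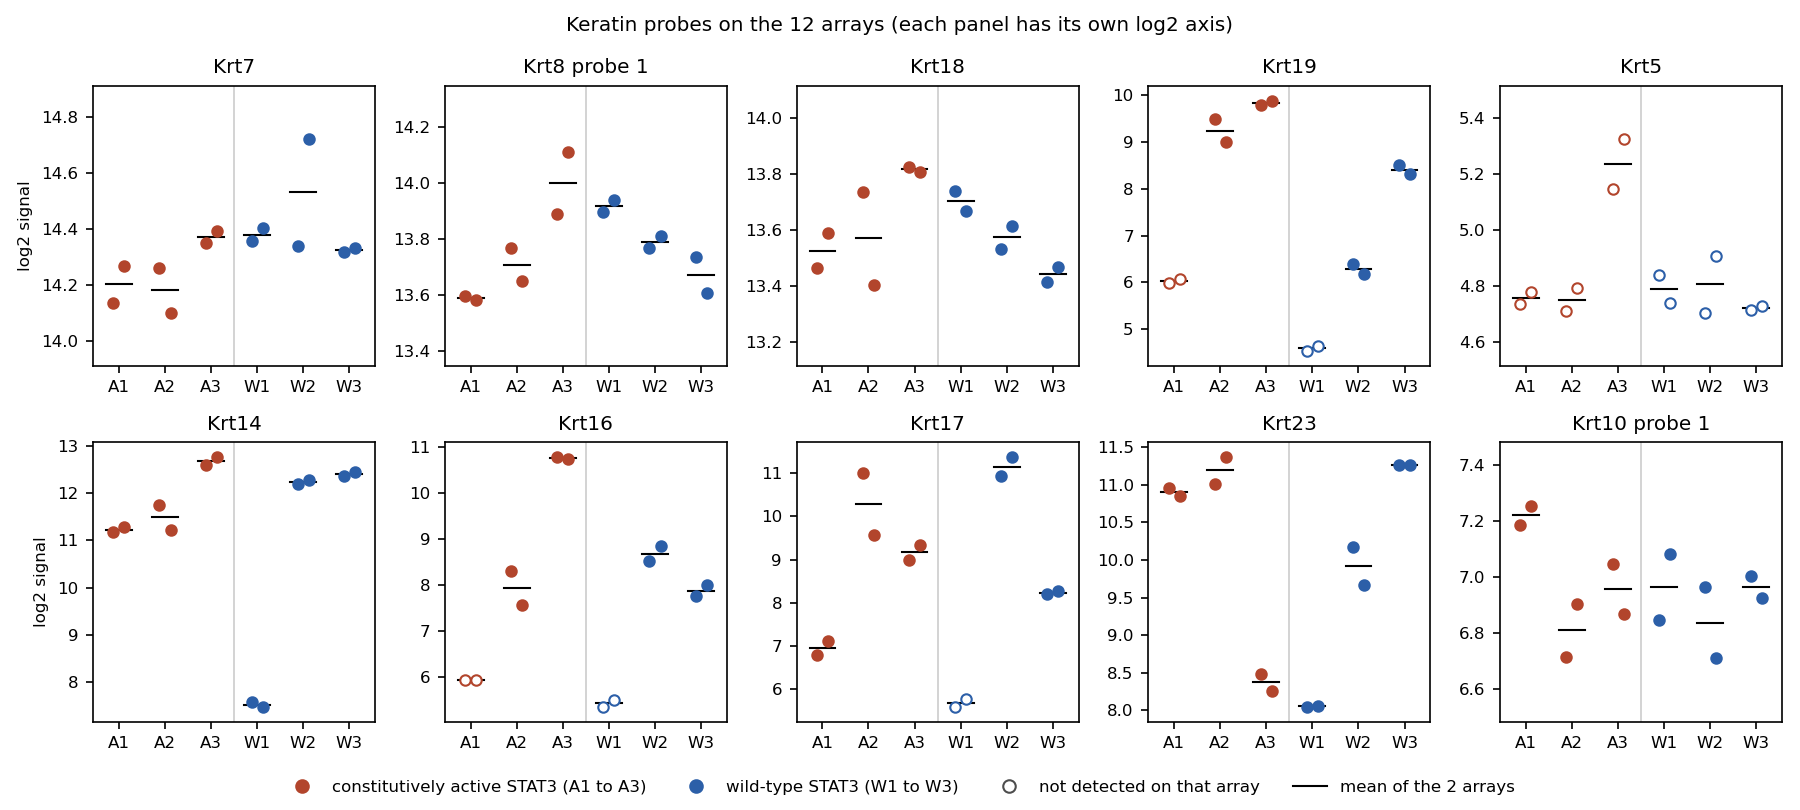
Log2 signal of 10 keratin probes on the 12 arrays, with 1 panel per gene and the 6 lines along the horizontal axis (A1 to A3, constitutively active; W1 to W3, wild-type). Points are arrays, open points were not detected, bars are means of 2 arrays, and each panel has its own axis: Krt7, Krt8 and Krt18 vary within less than 1 log2 unit, while Krt14 in W1, at 7.51, lies far under the other lines.

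Among the simple keratins, Krt8 and Krt18 were measured at high signal in all lines. Krt8, the type II partner of this pair, had line means of 13.59, 13.71 and 14.00 in active lines 1, 2 and 3 and of 13.92, 13.79 and 13.67 in wild-type lines 1, 2 and 3. Krt18, its type I partner, had 13.53, 13.57 and 13.82 in active lines 1, 2 and 3 and 13.70, 13.57 and 13.44 in wild-type lines 1, 2 and 3. Both were highest in active line 3 and second in wild-type line 1, and the ranges of the genotypes overlapped. Krt7, the type II keratin of ductal epithelia, had 14.20, 14.18 and 14.37 in active lines 1, 2 and 3 and 14.38, 14.53 and 14.33 in wild-type lines 1, 2 and 3. The highest Krt7 mean, that of wild-type line 2, came from arrays at 14.34 and 14.72. The raw Krt7 signal was 21024 to 23336 on active and 18564 to 22640 on wild-type arrays, between 47.3% and 74.7% of the brightest signal on the same array, and whether such signals are compressed was not tested.

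The differences between lines in these bright probes were small, and most pairs of lines did not differ beyond the spread between arrays. Krt8 differed among the 6 lines (limma F test, adjusted p = 0.0188), with active line 3 higher than active line 1 by 0.41 log2 units, a 1.33-fold difference (adjusted p = 0.00742), and 4 of its 15 line pairs were called. That call of Krt8 was lost without active line 3 (adjusted p = 0.0526, an alternative chosen after seeing the data) and under median scaling in place of quantile normalization (adjusted p = 0.166). Krt18 was not called among the 6 lines (adjusted p = 0.077), nor was Krt7 (adjusted p = 0.136), and each had 1 called pair. Single arrays changed this: Krt18 was called without replicate 1 or 2 of active line 2 (adjusted p = 0.0176 and 0.0247), and Krt7 without replicate 1 of wild-type line 2 (adjusted p = 0.0174). Krt18 was 1.30-fold higher in active line 3 than in wild-type line 3 (adjusted p = 0.0208), and Krt7 was 1.27-fold lower in active line 2 than in wild-type line 2 (adjusted p = 0.0421). No neighbours in the order of the 6 levels differed beyond the spread for Krt7, Krt8 or Krt18. The line means of Krt8 and Krt18 correlated at r = 0.92 over the 6 lines, a description over values that share the same arrays and a narrow range. The second Krt8 probe stayed between 4.79 and 5.07 on all 12 arrays without being detected, so the 2 probes of Krt8 disagree on whether the gene is expressed, and the Krt8 values here are those of the bright probe.

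Krt8 and Krt18 are neighbours in the RefSeq gene order, transcribed away from each other, and their upstream sequences are shown with those of Krt7, the third level keratin, and of Krt23, a wide-ranging one, because these genes contrast bright and even with line-dependent signal. Each is the 250 bases before the start that RefSeq gives, on assembly GRCm38.p6, read 5′ to 3′ on the gene's strand; a gene may have other starts. They lie at chr15:102004343-102004592 (minus strand) for Krt8, chr15:102027966-102028215 (plus strand) for Krt18, chr15:101412153-101412402 (plus strand) for Krt7 and chr11:99493121-99493370 (minus strand) for Krt23. Capitals mark GGGCGG, the GC box, or its reverse complement.
Krt8: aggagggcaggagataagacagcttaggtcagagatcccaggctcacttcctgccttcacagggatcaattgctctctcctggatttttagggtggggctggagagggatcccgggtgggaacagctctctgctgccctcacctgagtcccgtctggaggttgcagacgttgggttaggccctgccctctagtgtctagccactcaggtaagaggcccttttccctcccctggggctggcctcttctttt
Krt18: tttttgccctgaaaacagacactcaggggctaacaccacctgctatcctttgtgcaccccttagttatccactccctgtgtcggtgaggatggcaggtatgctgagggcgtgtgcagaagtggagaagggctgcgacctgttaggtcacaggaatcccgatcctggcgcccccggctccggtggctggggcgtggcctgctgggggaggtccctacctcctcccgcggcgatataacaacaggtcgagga
Krt7: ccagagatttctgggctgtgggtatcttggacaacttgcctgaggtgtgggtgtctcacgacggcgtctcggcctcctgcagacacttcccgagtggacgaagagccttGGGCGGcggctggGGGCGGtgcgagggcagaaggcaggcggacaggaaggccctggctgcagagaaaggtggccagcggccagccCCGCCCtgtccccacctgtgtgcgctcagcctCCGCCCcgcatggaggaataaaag
Krt23: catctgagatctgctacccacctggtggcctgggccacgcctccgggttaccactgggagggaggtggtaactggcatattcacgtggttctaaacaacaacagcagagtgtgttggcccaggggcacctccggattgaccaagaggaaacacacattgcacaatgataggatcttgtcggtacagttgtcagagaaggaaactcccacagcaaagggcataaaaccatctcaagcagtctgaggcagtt
Searched on both strands were TATAAA (the TATA box), TTCNNNGAA (the STAT element), TGANTCA (the AP-1 element) and GGGCGG, and no matches of different motifs overlapped in the keratin windows. Of the 32851 upstream sequences listed by RefSeq, 12.4% hold TATAAA, 7.02% TTCNNNGAA, 6.75% TGANTCA and 32.7% GGGCGG. Entries existed for 7 of the 10 keratin genes. Krt7 had 4 GC boxes, which began 141 and 128 bases upstream of the start on the gene's strand and covered bases 56 to 51 and 24 to 19 upstream on the other, Krt10 had 1 TATAAA, and Krt8, Krt18, Krt5 and Krt23 had no match in these windows. The Krt14 entry had none either, but its start may lie inside the gene, so its window may not be the sequence upstream of the gene. Such matches describe letters and do not show that a factor binds.

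Krt19, the simple keratin without a fixed partner, behaved unlike Krt7, Krt8 and Krt18. The arrays of active lines 1, 2 and 3 read 5.99 and 6.08, 9.49 and 9.0, and 9.80 and 9.88, and those of wild-type lines 1, 2 and 3 read 4.54 and 4.64, 6.40 and 6.19, and 8.51 and 8.31. It was detected on 8 arrays and on neither array of active line 1 or wild-type line 1, and the genotypes overlapped. Where a line had no detected signal only a bound can be given: the bright line's mean was set against the lowest signal of any detected probe on the dim line's arrays, or the probe's own signal where that was higher. By that bound Krt19 was at least 11.4-fold higher in active line 3 than in active line 1 and at least 12.4-fold higher than in wild-type line 1. Krt19 differed among the 6 lines (adjusted p = 4.94e-10), with 14 of 15 pairs called. From high to low the order was active line 3, active line 2, wild-type line 3, wild-type line 2, active line 1 and wild-type line 1, and only active line 1 and wild-type line 2, at 6.03 and 6.29, did not differ beyond the spread (adjusted p = 0.186). Active line 1 and wild-type line 1 were both below detection, so their order, counted among the called pairs, is not a measured one, and wild-type line 2 lay close to the limit.

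Over the 6 lines Krt19 had higher coefficients with the basal keratins than with its own list: its r was 0.79 with Krt16, 0.73 with Krt14 and 0.55 with Krt17, against 0.10 with Krt8, 0.11 with Krt18 and -0.27 with Krt7. These coefficients describe 6 points that share arrays, and their difference was not tested. They include active line 1 and wild-type line 1, where both Krt19 and Krt16 were below detection. Krt7, Krt8 and Krt18 hardly varied. In wild-type line 2, Krt19 was low, at 6.29, where Krt17 was highest, at 11.15.

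Of the basal keratins, Krt14 was the most evenly detected. Its arrays read 11.17 and 11.28, 11.75 and 11.23, and 12.60 and 12.77 in active lines 1, 2 and 3, and 7.56 and 7.46, 12.21 and 12.29, and 12.38 and 12.45 in wild-type lines 1, 2 and 3. It was detected on all 12 arrays, and wild-type line 1 stood alone, with every other line above 11. Active line 3 was 36.1-fold above wild-type line 1. The 6 lines differed (adjusted p = 6.93e-10), and so did the 3 active lines among themselves (adjusted p = 1.19e-05) and the 3 wild-type lines (adjusted p = 2.6e-10). In the order of levels, active line 3 and wild-type lines 3 and 2 formed an upper set in which neighbours did not differ beyond the spread, although its ends did, with active line 3 0.44 above wild-type line 2 (adjusted p = 0.0335). Further down the order, wild-type line 2 was 0.76 log2 units above active line 2 (adjusted p = 0.00173), active lines 2 and 1 did not differ (adjusted p = 0.18), and active line 1 was 3.72 above wild-type line 1 (adjusted p = 5.42e-09).

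The type II partner of Krt14 did not appear beside it. The single Krt5 probe read 4.74 and 4.78, 4.71 and 4.79, and 5.15 and 5.33 on the arrays of active lines 1, 2 and 3, and 4.84 and 4.74, 4.70 and 4.91, and 4.71 and 4.73 on those of wild-type lines 1, 2 and 3. Active line 3 had the highest pair, and none of the 12 values passed detection. A probe not detected gives no level, and whether this Krt5 probe can report its transcript was not tested; the Krt8 probes show that a silent probe can stand beside a bright one of the same gene.

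Krt16, a keratin of wounded and hyperproliferative epidermis, had its highest signal in active line 3. The arrays of active lines 1, 2 and 3 read 5.93 and 5.94, 8.30 and 7.56, and 10.78 and 10.75, and those of wild-type lines 1, 2 and 3 read 5.35 and 5.50, 8.52 and 8.84, and 7.76 and 8.0. Active line 1 and wild-type line 1 were without detection, and the intermediate lines came from both genotypes. Active line 3 was at least 21.6-fold above active line 1, at least 23.6-fold above wild-type line 1 and 2.08 log2 units above wild-type line 2, the next in order (adjusted p = 9.62e-06). The 6 lines differed (adjusted p = 8.17e-09). Active line 2 and wild-type line 3, at 7.93 and 7.88, did not differ beyond the spread (adjusted p = 0.869), nor did active line 1 and wild-type line 1 (adjusted p = 0.0645).

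Krt17, which shares the wound response with Krt16 and is also made by basal and appendage cells, was highest in another line. Its arrays read 6.79 and 7.12, 10.99 and 9.57, and 8.99 and 9.34 in active lines 1, 2 and 3, and 5.60 and 5.77, 10.93 and 11.36, and 8.19 and 8.28 in wild-type lines 1, 2 and 3. Wild-type line 2 led and wild-type line 1 was undetected, at least 30.8-fold lower. The arrays of active line 2 differed by more than 1 log2 unit, the widest gap within a line among the keratin probes tested. The 6 lines differed (adjusted p = 5.61e-07) and 13 of 15 pairs were called. Wild-type line 2 and active line 2 did not differ beyond the spread (adjusted p = 0.0661), nor did active line 3 and wild-type line 3 (adjusted p = 0.0515), whereas the other neighbours did.

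Krt14, Krt16 and Krt17 stand in a row in the RefSeq gene order, with Krt42 next to Krt17. Their line means correlated at r = 0.76 for Krt14 with Krt16, 0.73 for Krt14 with Krt17 and 0.71 for Krt16 with Krt17 over the 6 lines. Krt14 and Krt17 were lowest in wild-type line 1 and next lowest in active line 1, and Krt16 was below detection in both, while their leading lines differed between Krt17 and the other pair.

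To view the lists line by line, each gene was centred on its mean over the 6 lines and the deviations were averaged. The basal keratins (Krt14, Krt16 and Krt17) scored -1.17, 0.70 and 1.67 in active lines 1, 2 and 3 and -3.0, 1.49 and 0.31 in wild-type lines 1, 2 and 3. The simple keratins (Krt7, Krt8, Krt18 and Krt19) scored -0.44, 0.40 and 0.73 in active lines 1, 2 and 3 and -0.63, -0.23 and 0.18 in wild-type lines 1, 2 and 3. Both scores were lowest in wild-type line 1 and highest in active line 3, with signals below detection included. Other choices moved both ends: with the deposited log2 values the simple score was lowest in active line 1, at -0.31 against -0.28 in wild-type line 1, and with Krt16 left out the basal score was 1.0 in active line 3 and 1.78 in wild-type line 2. The simple score rests on Krt19. Without it, it was -0.13, -0.09 and 0.16 in active lines 1, 2 and 3 and 0.10, 0.06 and -0.09 in wild-type lines 1, 2 and 3, so that wild-type line 1 was no longer low. Krt7, Krt8 and Krt18 each stayed within 0.41 log2 units over the lines, both in wild-type line 1, lowest in the basal score, and in active line 3.

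**Figure D2:**
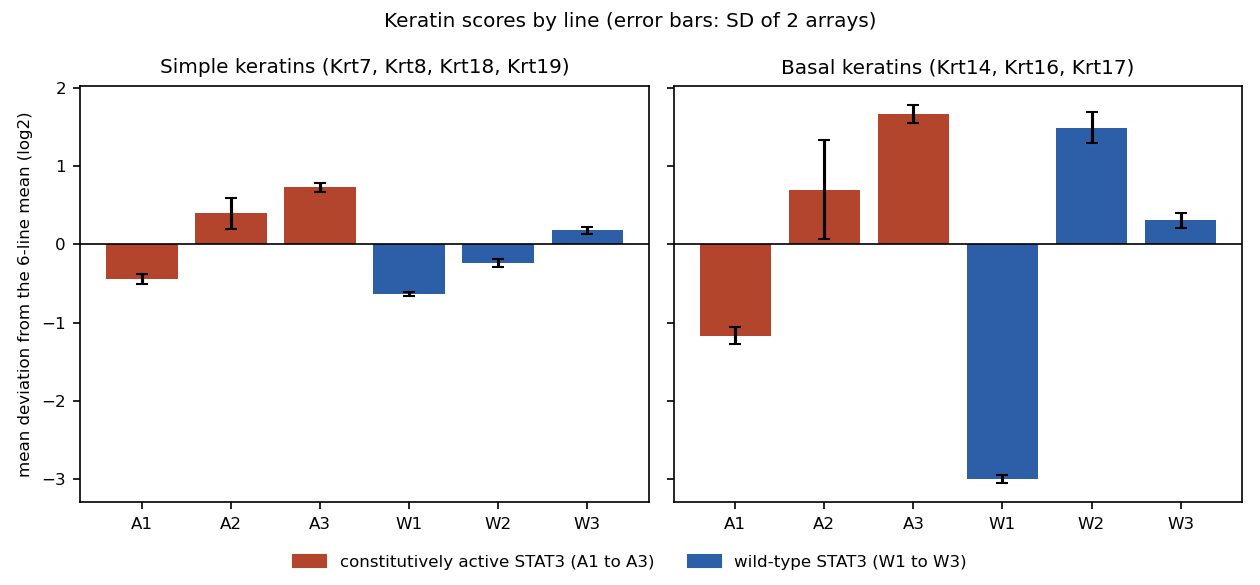
Mean deviation from the 6-line mean (log2) of the simple keratins (left panel) and the basal keratins (right panel) in each line, constitutively active lines A1 to A3 before wild-type lines W1 to W3, with error bars for the SD of the 2 arrays. The basal score falls to -3.0 in W1 and reaches 1.67 in A3, while the simple score stays between -0.63 and 0.73.

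Krt23 followed neither list. Its arrays read 10.96 and 10.86, 11.02 and 11.37, and 8.48 and 8.26 in active lines 1, 2 and 3, and 8.04 and 8.06, 10.17 and 9.67, and 11.27 and 11.27 in wild-type lines 1, 2 and 3. Each genotype thus held both high and low lines, with active line 3 and wild-type line 1 at the bottom, and wild-type line 3 was 9.30-fold above wild-type line 1. The 6 lines differed (adjusted p = 1.79e-08). Wild-type line 3, active line 2 and active line 1 formed an upper set whose neighbours did not differ beyond the spread, active line 1 was 0.99 above wild-type line 2 (adjusted p = 0.000574), wild-type line 2 was 1.55 above active line 3 (adjusted p = 1.93e-05), and active line 3 and wild-type line 1 did not differ (adjusted p = 0.144). The lines lowest in Krt23 were those highest in Krt8 and Krt18, with r = -0.92 and -0.89 over the 6 lines, although Krt8 and Krt18 moved within less than 0.5 log2 units.

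Krt10, the keratin of differentiating epidermal cells, stayed near the lower end of the scale. Its detected probe had line means of 7.22, 6.81 and 6.96 in active lines 1, 2 and 3 and of 6.96, 6.84 and 6.96 in wild-type lines 1, 2 and 3. The 6 lines were not called (adjusted p = 0.0804; 0.0447 without replicate 1 of wild-type line 2), and the active lines among themselves were (adjusted p = 0.0319), with active line 1 above active line 2 by 0.41 (adjusted p = 0.0208). That call among the active lines was lost with the deposited log2 values (adjusted p = 0.0805), under median scaling (adjusted p = 0.279), with no filter on dim probes (adjusted p = 0.0794), and without replicate 1 or 2 of active line 1 (adjusted p = 0.0774 and 0.14) or replicate 1 of active line 2 (adjusted p = 0.11). The second Krt10 probe read 4.65 to 4.88 and was detected nowhere.

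Taking the 9 tested keratin probes together, 6 differed among the 6 lines, which is 66.7% where 76.1% of all probes did, so being called among the lines is not particular to keratins. Among the active lines 7 of the 9 differed, against 59.7% of all probes, and among the wild-type lines 5 of the 9, against 43.8%. Of all pairs of lines and keratin probes 71 were called, 52.6% of them, against 35.6% over all probes.

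Between the genotypes no keratin was called. None of the 9 keratin probes passed limma's adjusted threshold, which 0.00858% of all probes, 1 of 11650, passed, and none had an unadjusted p under 0.05, as 5.61% of all probes had. The line means of the genotypes overlapped for all 9, where 12.7% of all probes showed no overlap. By exact permutation, 3 lines against 3 allow no p below 0.1. Log2 fold changes were positive for 7 keratin probes and negative for 2, with a median of 0.41, against a median of 0.00011 over all probes.

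Krt19 had the largest genotype difference of the keratins, with 8.37 ± 2.05 in active lines and 6.43 ± 1.92 in wild-type lines (SD over 3 lines, signals below detection included), a log2 fold change of 1.94 ± 1.31 (SE; adjusted p = 0.899 by limma). It stayed between 1.02 and 3.11 when each line was left out in turn. Krt14 had 11.80 ± 0.78 in active and 10.73 ± 2.78 in wild-type lines, a log2 fold change of 1.08 ± 1.35 (adjusted p = 0.953), which was -0.53 without wild-type line 1. Krt16 had 8.21 ± 2.43 in active and 7.33 ± 1.70 in wild-type lines, a log2 fold change of 0.88 ± 1.38 (adjusted p = 0.962), which was -0.07 without wild-type line 1 and -0.40 without active line 3. Krt17 had 8.80 ± 1.69 in active and 8.36 ± 2.73 in wild-type lines, a log2 fold change of 0.44 ± 1.5 (adjusted p = 0.973), which was -0.89 without wild-type line 1 and -0.30 without active line 2. Each of these 3 signs turned without wild-type line 1, and those of Krt16 and Krt17 also without another line.

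Krt23 had 10.16 ± 1.55 in active and 9.75 ± 1.62 in wild-type lines, a log2 fold change of 0.41 ± 1.05 (adjusted p = 0.971), which was -0.44 without wild-type line 1 and -0.11 without active line 2. The level keratins had differences of -0.16 ± 0.12 for Krt7 (adjusted p = 0.909), -0.03 ± 0.15 for Krt8 (adjusted p = 0.983), 0.06 ± 0.14 for Krt18 (adjusted p = 0.971) and 0.07 ± 0.14 for Krt10 (adjusted p = 0.968). The sign for Krt8 turned to 0.18 under median scaling, which moves the median of all probes to 0.18 as well. Of the variation between line means, 46.8% lay between genotypes for Krt7, 26.4% for Krt19, 9.41% for Krt14, 7.76% for Krt10, 7.04% for Krt18, 6.20% for Krt16, 2.45% for Krt23, 1.40% for Krt17 and 0.86% for Krt8, and the median of all probes was 12.9%.

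**Figure D3:**
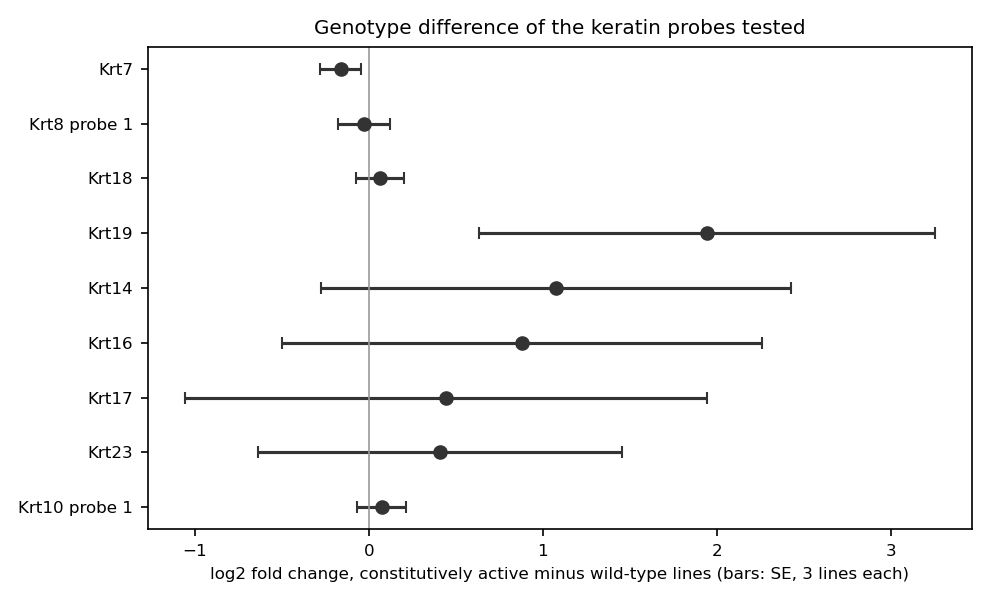
Log2 fold change, constitutively active minus wild-type lines, of the 9 keratin probes tested, 1 per row, with error bars for the SE (3 lines each). Krt19 is farthest from 0, at 1.94, and its SE of 1.31 is far wider than that of Krt7, 0.12; no probe was called.

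The array carried 37 further keratin genes, of which 29 were detected on no array and 1, Krt79, passed the filter. Krt79, a type II keratin of hair follicle and gland duct cells, had 6.89, 7.34 and 9.84 in active lines 1, 2 and 3 and 5.13, 7.51 and 6.71 in wild-type lines 1, 2 and 3. It was undetected in wild-type line 1 and highest in active line 3, as Krt16 was, and its r with Krt16 over the 6 lines was 0.92. It differed among the 6 lines (adjusted p = 1.56e-07). The genotype difference was 1.57 and was not called.

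Krt6a, Krt6b, Krt15 and Krt42 did not pass the filter and are described because they were detected on both arrays of active line 3, a choice made after their values were seen. Krt6a and Krt6b are type II partners of Krt16 and Krt17, and 1 of the 3 Krt6a probes read 9.75 in active line 3, against 4.94 and 5.12 in active lines 1 and 2 and 4.66, 5.77 and 5.70 in wild-type lines 1, 2 and 3, all below detection. 1 of the 2 Krt6b probes read 8.14 in active line 3 and 5.19 to 5.59 in the other lines, again below detection. The remaining probes of Krt6a and Krt6b were detected on no array, active line 3 included. The Krt6 genes are near-identical copies, so which of them gave the signal is uncertain. Krt15, a type I keratin of basal and follicle stem cells, read 8.35 in active line 3 and 6.18 in wild-type line 2, where 1 array detected it, and was not detected in the other 4 lines. The brighter Krt42 probe read 8.24 in active line 3, and 1 array each of active line 2 and wild-type line 2 detected it, at line means of 6.02 and 6.01. These keratins were left untested, since too few lines detected them.

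**Figure D4:**
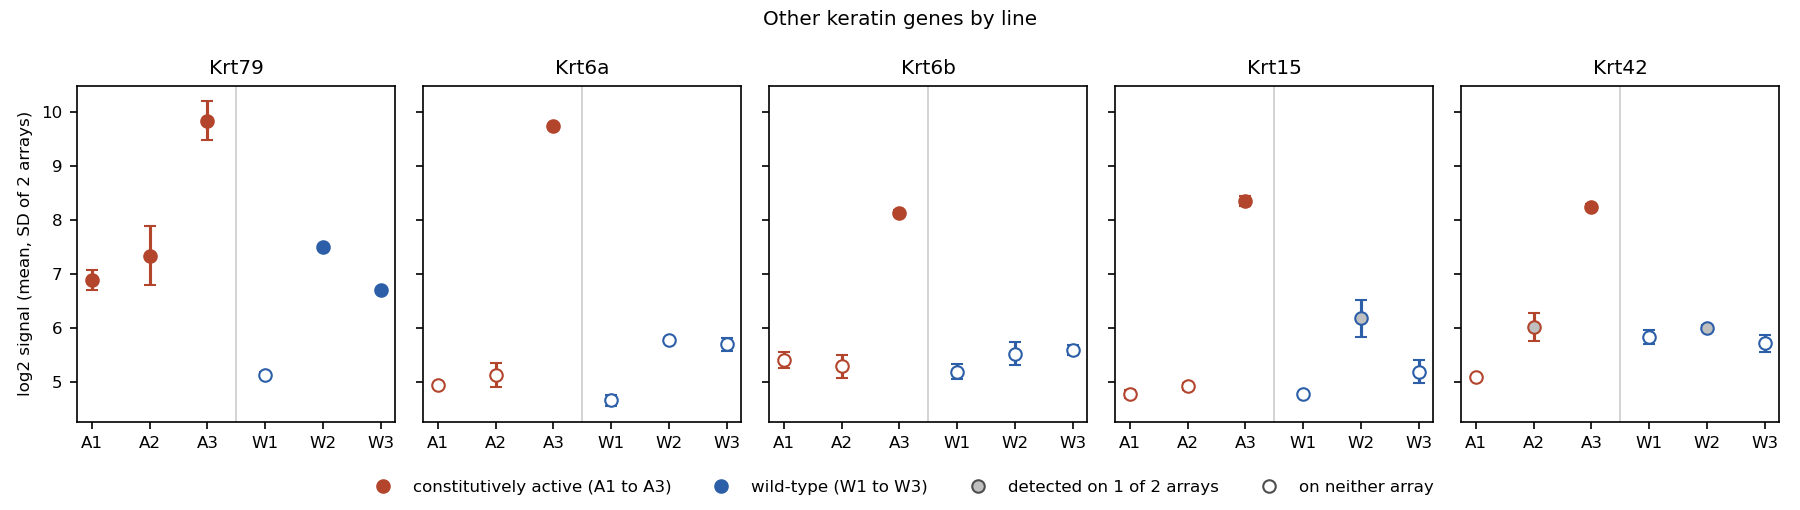
Log2 signal (mean and SD of 2 arrays) of 5 keratin genes outside the 10 followed, in lines A1 to A3 (constitutively active) and W1 to W3 (wild-type). Open points were detected on neither array and grey points on 1 of 2. The Krt6a probe shown, 1 of 3, reaches 9.75 in A3 and was detected in no other line.

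Genes of the same cell compartments were read from lists. The array held 19 basal and myoepithelial genes, of which 10 were nowhere detected and 8 were tested; all 8 differed among the 6 lines, where 75.8% of all genes did. Averaged after centring, they lay at -0.41, 0.27 and 0.59 in active lines 1, 2 and 3. In wild-type lines 1, 2 and 3 they lay at -1.64, 1.15 and 0.04, lowest in wild-type line 1 like the basal keratins. These means include signals below detection, as for Acta2 and Lgals7, which were detected on 10 and 11 arrays. Acta2, smooth muscle actin of myoepithelial cells, had 8.65, 8.28 and 12.34 in active lines 1, 2 and 3 and 6.03, 13.94 and 6.93 in wild-type lines 1, 2 and 3, high in active line 3 and wild-type line 2 only. Lgals7, a galectin of stratified epithelia, had 8.58, 10.95 and 8.54 in active lines and 6.16, 10.15 and 9.88 in wild-type lines 1, 2 and 3. The integrin subunits Itga6 and Itgb4, which together anchor keratin filaments at hemidesmosomes, spanned 1.20 and 0.70 log2 units, the narrowest of the list. Neither was lowest in wild-type line 1. Itga6 had 12.49 there and was lowest in active line 3, at 11.30. Itgb4 had 12.91 there and was lowest in wild-type line 2, at 12.40. Trp63, a transcription factor that defines basal cells, was detected on 3 arrays, 1 of active line 3 and 2 of wild-type line 2, and was not tested. Between genotypes 7 of the 8 were higher in active lines and 1 lower, with a median log2 fold change of 0.15 and none called.

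Of 13 tested luminal genes 12 differed among the lines, 92.3% where 75.8% of all genes did, and their median span was 1.01, against 0.58 for all genes. Prom1, a membrane glycoprotein of luminal cells, had 12.03, 12.25 and 7.12 in active lines 1, 2 and 3 and 7.25, 11.91 and 11.94 in wild-type lines 1, 2 and 3, low in the same lines as Krt23. Kit, a receptor of luminal progenitors, had 12.02, 12.58 and 8.93 in active and 12.16, 11.86 and 12.14 in wild-type lines 1, 2 and 3, low in active line 3 alone. The claudins Cldn3 and Cldn7 were the most even of the list, with spans of 0.30 and 0.50. Between genotypes 3 were higher and 10 lower in active lines, with a median of -0.21 and none called. Active line 3, high in basal keratins and in Krt8 and Krt18, had the lowest centred mean of the luminal list, -0.69, against 0.06 and 0.26 in active lines 1 and 2 and -0.19, 0.22 and 0.34 in wild-type lines 1, 2 and 3. Signals below detection were included in these means. The members did not all share the low position of active line 3. Prom1 and Kit were lowest in active line 3, while Foxa1 was highest there, at 7.47, and Ltf second highest, at 14.44.

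Of 10 tested genes that hold keratin filaments to junctions, the plakin and desmosomal genes, 7 differed among the lines, 70% where 75.8% of all genes did. Their median span was 0.73, against 0.58 for all genes, and 5 were higher and 5 lower in active lines, none called. The widest was Pkp1, a desmosomal plakophilin of stratified epithelia, with 10.67, 11.90 and 11.65 in active lines 1, 2 and 3 and 8.0, 10.88 and 11.28 in wild-type lines 1, 2 and 3, lowest where Krt14 was lowest (adjusted p among the lines = 2.97e-10). Dst, a plakin that links keratins to hemidesmosomes, ran from 6.39 in active line 3 to 8.24 in wild-type line 1. Pkp2 and Dsg3 spanned 0.24 and 0.37. The 6 other intermediate filament genes tested all differed among the lines, as 75.8% of all genes did. Vim, the filament of mesenchymal and many cultured cells, had 11.73, 11.70 and 13.17 in active lines 1, 2 and 3 and 11.36, 12.70 and 12.43 in wild-type lines 1, 2 and 3, highest in active line 3. Nes was highest in wild-type line 1, at 10.79, with 9.17 to 9.64 in the others, and the nuclear lamins Lmna and Lmnb1 spanned 0.65 and 0.64.

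Genes whose line means followed each wide-ranging keratin most closely were taken from 1487 genes that also spanned over 1 log2 unit; with 6 points and so many genes, high coefficients are common, and they are given as a description. For Krt19 they were C9, Tmem40 and Lypd1, with r = 0.97 each. For Krt14 they were Zfp467, Fth1 and Kctd14, with r between 0.98 and 0.99, and Fth1, ferritin heavy chain, had 13.26 in wild-type line 1 against 14.04 to 14.37 elsewhere. For Krt16 they were Spata24, Gusb and Slc7a4, with r between 0.98 and 0.99. For Krt17 they were Ppm1j, Sbspon and H2-Q5, with r between 0.96 and 0.98, and Sbspon had 7.06, 8.42 and 8.41 in active lines 1, 2 and 3 and 5.43, 9.64 and 7.71 in wild-type lines 1, 2 and 3. For Krt23 they were AI467606, Tfap2b and Osbpl6, with r between 0.98 and 0.99. Tfap2b, which codes for an AP-2 transcription factor, had 8.65, 9.25 and 6.17 in active lines 1, 2 and 3 and 6.18, 8.30 and 9.37 in wild-type lines 1, 2 and 3, low in the lines where Krt23 was low. Signals below detection entered these coefficients. Krt19 and Krt16 were undetected in active line 1 and wild-type line 1, and Krt17 in wild-type line 1. C9, at 5.22 in active line 1 and 5.09 in wild-type line 1, lay under 5.92, the lowest signal of any detected probe.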

How the data were processed

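Bead arrays of 6 lines, 2 each, were analysed. The deposited raw table gives for every probe and array a linear bead intensity and a detection fraction, per the file headers. BeadStudio 3.1.7 and lumi are the tools listed in the submitters' processing notes. The authors' deposited log2 values, made by steps not given in the sources used here, served as an alternative. From the intensities, limma 3.58.1 in R 4.3.3 computed background-corrected, quantile-normalized log2 signals (neqc, offset 16), taking 1 minus the deposited fraction as the detection p-value. The offset understates folds of dim probes. Kept were 11650 probes detected at p under 0.01 on both arrays of at least 3 lines. Symbols came from the platform annotation; all 12 keratin probes matched a RefSeq table by Entrez identifier. Genotypes were compared over line means (lmFit and eBayes, two-sided), lines by moderated F tests and contrasts over arrays, with Benjamini-Hochberg adjustment over all kept probes (and all 15 pairs) at 0.05. The fits were tested on simulated data. The 3 lines per genotype limit the precision of the genotype comparison, and the 2 arrays per line that of the tests among lines. Genes were named as follows: all 10 keratins; the 3 genes most correlated with each that spanned over 1 log2 unit; up to 2 widest and 2 narrowest tested members of each list; other keratins that passed the filter; and Stat3. Keratins outside that rule, Trp63, Epcam, Cd24a, Cdh1, Cldn4, Foxa1 and Ltf were added. The keratins and gene lists were chosen with earlier results of these data known. Alternatives were the deposited values, median scaling, an offset of 50, other filters, 1 probe per gene, blocks, and left-out lines or arrays. No slide or hybridisation batch was given, so a batch that went with genotype cannot be told apart from it.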

Additional observations from a re-analysis of the deposited data

How the results depend on the processing

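No keratin was called between genotypes under any alternative run, which included the deposited log2 values, median scaling, an offset of 50, 3 other filters, 1 probe per gene, random line blocks and each line left out in turn. Over all probes 1 passed, against 0 with the deposited values, an offset of 50, the other filters or 1 probe per gene, and 0 to 2 with a line left out. The fold change of Krt8 was 0.178 under median scaling. With each line left out in turn, the log2 fold changes ran from -0.143 to 0.0618 for Krt8, -0.0385 to 0.167 for Krt10, -0.0246 to 0.13 for Krt18, -0.437 to 1.31 for Krt23, -0.531 to 1.92 for Krt14, -0.398 to 2.02 for Krt16 and -0.893 to 1.84 for Krt17. The score differences, active minus wild-type, ran from 0.205 to 0.79 for simple and -0.499 to 1.74 for basal keratins, and the simple one was -0.041 without Krt19. With only probes detected on all 12 arrays, 6 keratin probes were left, of which 3 differed among the 6 lines, 4 among the active and 2 among the wild-type lines. Of all 9941 such probes, 7676, 5961 and 4315 did. Fewer probes were tested than the 11650 above. The replicate number as a block kept 6, 7 and 5 keratin calls and 0 between genotypes. Among the lines, 8705, 6868 and 4996 of all 11650 probes were called with that block. Correlations of same-numbered arrays' deviations ran from -0.27 to 0.319 over 15 pairs of lines, and 2 were over 0.1. These values show no pairing shared by all lines, but they cannot exclude one in some lines. Krt19, Krt14, Krt16, Krt17 and Krt23 differed among the 6 lines with every array left out in turn, and also without wild-type line 1 or without active line 3, alternatives chosen after seeing the data. With an array left out, 6 to 8 of the 9 keratin probes were called, against 8116 to 8635 of all 11650 probes. Krt7 and Krt18 were called among the 6 lines with the deposited values (limma F test, adjusted p = 0.0367 and 0.0176). Over all 11650 probes, 4623 were called among active lines under median scaling, against 6954, and 2847 among wild-type lines, against 5104. The cause for median scaling was not tested. With 1 probe per gene, 7306 probes were tested instead of 11650, so the counts have different totals. Of these 7306, 4447 were called among active lines, 3393 among wild-type lines and 5669 among 6 lines. Of the 11650, 6954, 5104 and 8863 were. Signals near the detection limit, at 5.92 to 6.47 depending on the array, bound what can be said of some dim lines. These are active line 1 and wild-type line 1 for Krt19 and Krt16, and wild-type line 1 alone for Krt17.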

Other observations

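The array held 11 cornified envelope genes, of which 7 were nowhere detected and 1, Sbsn, was tested. Sbsn, suprabasin of differentiating epidermis, had 6.52, 7.80 and 9.69 in active lines 1, 2 and 3 and 6.70, 7.39 and 7.57 in wild-type lines 1, 2 and 3, highest in active line 3 (limma adjusted p among the 6 lines = 1.32e-05). Of 10 tested epithelial transcription and splicing factors 7 differed among the lines, 70% where 75.8% of all genes did, and 6 were higher and 4 lower in active lines, none called. Runx1, a transcription factor active in several epithelia, had 6.67, 7.19 and 8.53 in active lines 1, 2 and 3 and 7.61, 7.20 and 6.89 in wild-type lines 1, 2 and 3. Ovol1, an epidermal differentiation factor, had 6.52, 6.49 and 7.38 in active lines 1, 2 and 3 and 6.47, 7.05 and 5.93 in wild-type lines 1, 2 and 3. Esrp2 and Tfap2c were even, with spans of 0.23 and 0.26 log2 units.

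The 3 mesenchymal genes tested all differed among the 6 lines, as 75.8% of all genes did. Twist1, a regulator of mesenchymal state, had 7.77, 8.82 and 9.47 in active lines 1, 2 and 3 and 7.32, 7.46 and 7.55 in wild-type lines 1, 2 and 3, so the genotypes did not overlap, as for 12.7% of all probes, and its log2 fold change of 1.24 was not called (limma adjusted p = 0.843). Fn1 and Pdgfra spanned 1.04 and 0.50 log2 units. Cd14, the leukocyte gene tested, had 12.59, 12.87 and 11.66 in active lines 1, 2 and 3 and 11.99, 12.38 and 12.84 in wild-type lines 1, 2 and 3. Kdr, the endothelial gene tested, spanned 0.33 and did not pass among the 6 lines (adjusted p = 0.222).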
